A study of Homo sapiens with 6 samples.

Results

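The IFIT and IFI genes are a group of interferon-induced transcripts, and 9 of them were followed here: IFIT1, IFIT2, IFIT3, IFIT5, IFI44, IFI44L, IFI6, IFI27 and IFI35. They were selected by symbol out of 63677 gene identifiers in the count table, with earlier results of the same Olaparib and DMSO comparison in view, so they were in effect picked from measured values. Their differences between the groups are therefore given as a description, without a test. The samples were UWB1.289 cells, an established ovarian cancer line that lacks BRCA1 function, and whose genotype the sample labels give as WT. They were incubated for 24 h with Olaparib, an inhibitor of the DNA repair enzyme PARP1, or with DMSO, the solvent that served as the control. Each condition had 3 samples, described as independent replicates, all of 1 cell line, and 3 dishes were prepared per condition. The Olaparib concentration was 4 µM in the sample labels and the study's methods and 10 µM in the design text of the series.

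Type I and type III interferons are secreted proteins that bind receptors on the cell surface and activate the kinases JAK1 and TYK2. These activate transcription factors, STAT2 and IRF9 among them, that bind the interferon-stimulated response element (ISRE), a short sequence in the promoters of responsive genes. The IFIT proteins are built from tetratricopeptide repeats and bind foreign or misprocessed RNA, and the IFI proteins named here are membrane, mitochondrial or cytosolic proteins whose antiviral functions are less well defined. Such genes can also be transcribed at a basal rate in tumour cells that no interferon was added to.

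The promoters of most of these genes carried sequences of the ISRE kind close to the transcription start. RefSeq promoter windows of 300 bases (build GRCh38.p14, 250 bases before the start site and 50 from it onwards) were at hand for 8 of the 9 genes, 11 windows in all, since IFIT3, IFI44 and IFI27 had alternative starts and IFIT2 had no entry. The stretches below show the matches to the ISRE core GAAANNGAA, read on either strand and set in capitals, for 5 genes where the stretch overlaps no annotated exon. The start site is position 0 and the base before it is -1.
IFIT1: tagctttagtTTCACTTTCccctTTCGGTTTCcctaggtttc
IFIT3: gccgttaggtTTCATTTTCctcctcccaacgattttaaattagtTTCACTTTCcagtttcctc
IFI44: cacactgagtTTCAGTTTCctttctct
IFI6: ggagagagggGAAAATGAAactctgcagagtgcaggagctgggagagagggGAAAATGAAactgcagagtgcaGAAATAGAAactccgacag
IFI27: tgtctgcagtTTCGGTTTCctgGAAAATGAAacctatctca
These are chr10:89392498-89392539 (plus strand) for IFIT1, chr10:89327832-89327894 (plus strand) for IFIT3, chr1:78649762-78649788 (plus strand) for IFI44, chr1:27672267-27672358 (minus strand) for IFI6 and chr14:94110619-94110659 (plus strand) for IFI27. In IFIT1 the cores lay at -115 to -107 and -102 to -94. In IFI6 the same core, GAAAATGAA, stood at -156 and at -115, and a different variant followed at -93. In IFI27 the pair faced each other on opposite strands, and the end of one, the bases between them and the start of the other form a match to the interferon gamma activated site (GAS) core TTCNNNGAA.

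**Figure D1:**
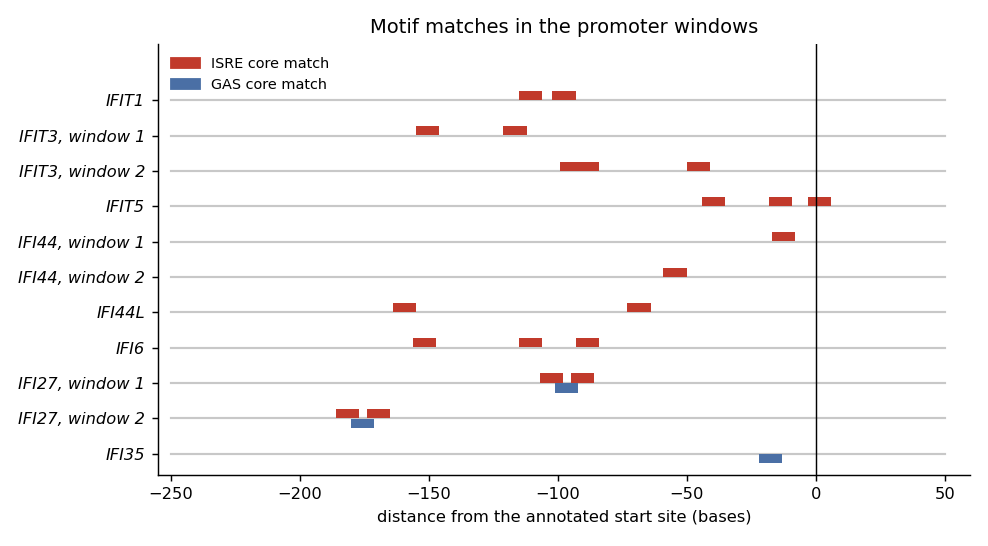
Matches to the ISRE core (red) and to the GAS core (blue) on either strand in each of the 11 RefSeq promoter windows of 8 genes; the horizontal axis is the distance from the annotated start site in bases. ISRE matches begin between -164 and -3 in all windows except that of IFI35, which has none, and the second IFI27 window, where they begin at -186 and -174; the paired windows of IFI44 and of IFI27 overlap and show the same matches.

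An ISRE core match was found in 10 of the 11 windows, that is for 7 of the 8 genes, and 8 of the windows held more than 1. Over all 35116 windows of this length in the table, 8.11% held a match and 0.701% held at least 2. Among the other interferon-stimulated genes listed here, 32 of 56 windows (57.1%) held a match. By gene, 29 of the 41 with an entry had a match in at least 1 of their windows. The exception among the IFI genes was IFI35, whose window held a GAS core match at -22 to -14 and no ISRE core. GAS matches were found in 7.66% of all windows, and they were present for IFI27 and IFI35 out of the 8 genes. A match describes the letters only, and its absence says only that these letters are not in this window.

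All 9 genes passed the filter of more than 10 counts over the 6 samples, as did 21729 genes in all. Total counts lay between 35360458 and 39640775 per sample, and replicates of one condition differed by more than sampling noise (chi-square per degree of freedom 1.81 to 4.11). Of 8 ovarian carcinoma markers, 7 passed the filter and together held 464700 to 494300 normalized counts per sample, most of it from the keratins of simple epithelia KRT7, KRT8 and KRT18. WT1, a transcription factor of serous ovarian carcinoma, had 8 counts in total, and the leukocyte and fibroblast markers are given beside the results below.

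The 4 IFIT genes lie in a cluster on chromosome 10, all on the plus strand, within 138 kb. In every one the mean was higher with Olaparib, by between 1.13-fold (IFIT5) and 2.06-fold (IFIT1). IFIT1 (ENSG00000185745, chr10:89392546-89406487) encodes a protein that binds RNA with an incomplete cap and keeps it from being translated. IFIT1 had 246, 392 and 440 normalized counts in the Olaparib samples 1, 2 and 3, and 186, 149 and 190 in the DMSO samples. The groups did not overlap, but the Olaparib sample 1 lay closer to the DMSO samples than to the other Olaparib samples. The means were 359 ± 101 (SD, n = 3) and 175 ± 22.5 (n = 3), and the fitted log2 fold change was 1.04 with a standard error (SE) of 0.13. This and every other SE here was derived from edgeR's F statistic, whose variance draws on all genes. It can be smaller than the spread of a gene's own 3 samples implies.

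IFIT3 (ENSG00000119917, chr10:89327307-89377473) encodes a partner that binds IFIT1 and stabilizes it. Its normalized counts were 327, 366 and 387 with Olaparib and 224, 238 and 284 with DMSO. Every Olaparib sample was above every DMSO sample, with means of 360 ± 30.4 and 249 ± 31.7 (SD, n = 3 each) and a log2 fold change of 0.53 (SE 0.08). IFIT2 (ENSG00000119922, chr10:89283694-89309271), whose product binds RNA in complexes with the other IFIT proteins and is linked to apoptosis, had 303, 269 and 309 normalized counts with Olaparib and 243, 210 and 273 with DMSO. Here the ranges met, since the DMSO sample 3 was above the Olaparib sample 2. The log2 fold change of IFIT2 was 0.28 (SE 0.09). IFIT5 (ENSG00000152778, chr10:89414568-89421605), which binds RNA carrying a phosphate at its end, had the smallest difference of the family. It had 277, 291 and 340 normalized counts with Olaparib against 269, 239 and 295 with DMSO, so the groups overlapped, and its log2 fold change was 0.18 (SE 0.08).

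The size of the difference thus varied within one cluster of neighbouring paralogs. The ratio of IFIT1 to IFIT2 normalized counts was 0.813, 1.46 and 1.42 in the Olaparib samples and 0.767, 0.71 and 0.694 in the DMSO samples. The ratio of IFIT1 to IFIT5 was 0.887, 1.35 and 1.30 with Olaparib and 0.693, 0.623 and 0.643 with DMSO. These ratios were higher in each Olaparib sample than in any DMSO sample, with the Olaparib sample 1 again nearest to the controls. IFIT1 had the largest fold change of the family, so ratios with IFIT1 as the numerator largely restate the fold changes above and are not separate evidence. The ratio of IFIT1 to IFIT3 was 0.752, 1.07 and 1.14 with Olaparib and 0.832, 0.626 and 0.667 with DMSO, and here the groups overlapped, since the Olaparib sample 1 was below the DMSO sample 1. The IFIT coding sequences are 64.6% (IFIT2 and IFIT5) to 73.8% (IFIT2 and IFIT3) identical, and the longest stretch that any pair of the IFIT transcripts shares without a mismatch is 26 bases. Of the exon bases of IFIT2, 12.1% are shared with the lncRNA ENSG00000232110 on the same strand, so the assignment of reads to IFIT2 is less certain than for IFIT1 and IFIT5, whose exons overlap no other gene.

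**Figure D2:**
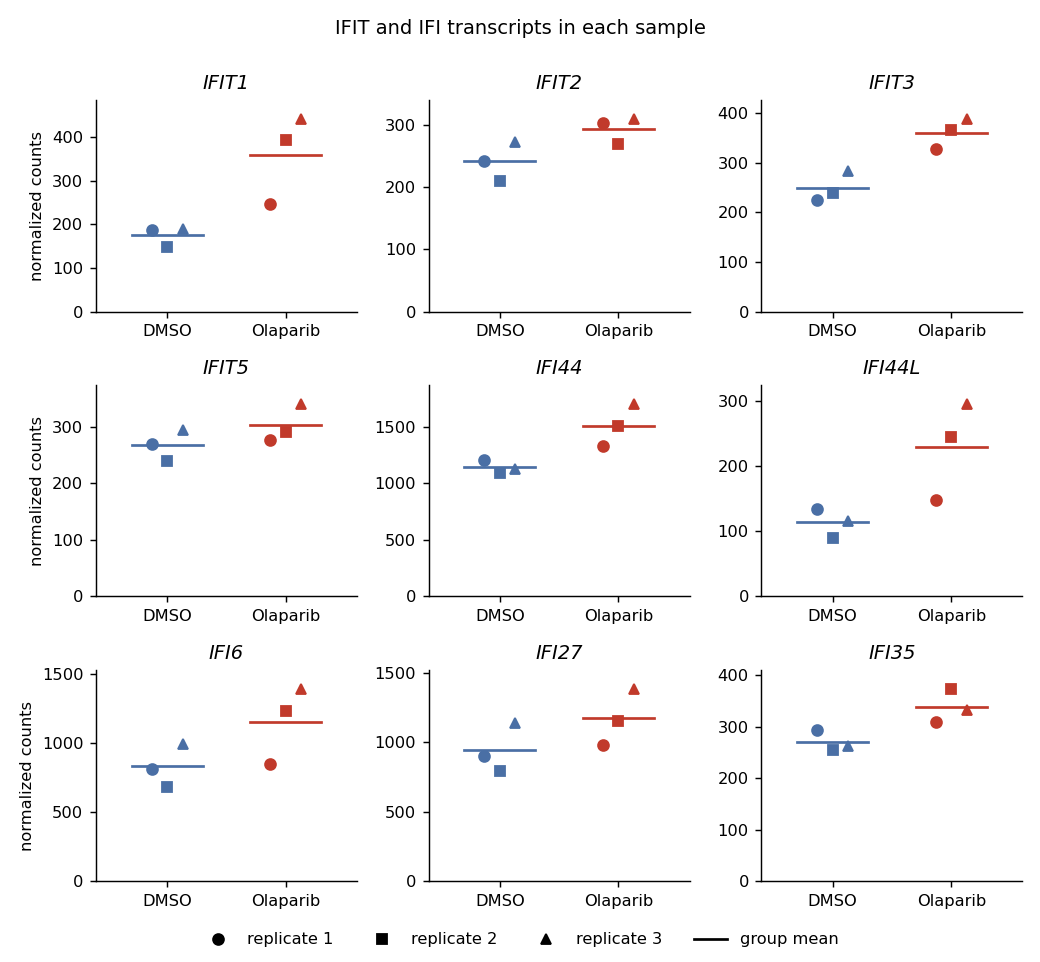
Normalized counts (vertical axes, from 0, with a scale of their own for each gene) of the 9 IFIT and IFI genes in the 3 DMSO and 3 Olaparib samples, with a symbol for each replicate number and a line at the group mean. In 8 of the 9 genes the circle of the Olaparib sample 1 is the lowest Olaparib point, and in IFIT1, IFIT3, IFI44, IFI44L and IFI35 the groups do not overlap.

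IFI44 and IFI44L are paralogs that follow each other on chromosome 1, 3.65 kb apart. IFI44 (ENSG00000137965, chr1:78649796-78664078), a cytosolic protein with a GTP-binding motif, had 1326, 1502 and 1698 normalized counts with Olaparib and 1204, 1088 and 1129 with DMSO. The groups did not overlap, and the log2 fold change was 0.40 (SE 0.06). IFI44L (ENSG00000137959, chr1:78619902-78646145), a frequent member of interferon signatures in blood, had 148, 245 and 295 normalized counts with Olaparib and 135, 90.2 and 116 with DMSO. The means were 229 ± 75.0 and 114 ± 22.4 (SD, n = 3 each), and the log2 fold change was 1.02 (SE 0.15). IFI44L was thus the gene after IFIT1 in the size of its difference, yet its Olaparib sample 1 lay only just above the DMSO sample 1. The ratio of IFI44L to IFI44 normalized counts was 0.111, 0.163 and 0.174 with Olaparib and 0.112, 0.0829 and 0.102 with DMSO, so the Olaparib sample 1 had a ratio inside the DMSO range. The coding sequences of the pair are 69.1% identical, with no shared run longer than 13 bases.

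IFI6 and IFI27 encode small hydrophobic proteins of one family, and in both the Olaparib and DMSO samples overlapped. IFI6 (ENSG00000126709, chr1:27666064-27672212, minus strand), a membrane protein known to restrict flaviviruses and to delay apoptosis, had 847, 1232 and 1392 normalized counts with Olaparib and 816, 682 and 998 with DMSO. The DMSO sample 3 was above the Olaparib sample 1, and the log2 fold change was 0.47 (SE 0.10). Of the exon bases of IFI6, 23.1% are shared with LINC02574 on the same strand. IFI27 (ENSG00000165949, chr14:94104836-94116695), a mitochondrial and nuclear membrane protein used as a blood marker of viral infection, had 978, 1157 and 1384 normalized counts with Olaparib and 904, 797 and 1138 with DMSO. Its DMSO sample 3 was also above the Olaparib sample 1. The log2 fold change of IFI27 was 0.31 (SE 0.09), and it was 0.17 without the Olaparib sample 3 and 0.20 without the DMSO sample 2.

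IFI35 (ENSG00000068079, chr17:43006740-43014456) encodes a leucine zipper protein that pairs with NMI, another interferon-induced protein. It had 309, 373 and 332 normalized counts with Olaparib and 294, 255 and 262 with DMSO. The lowest Olaparib sample stood just above the highest DMSO sample, and the log2 fold change was 0.32 (SE 0.08).

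All 9 fitted log2 fold changes were positive, from 0.18 for IFIT5 to 1.04 for IFIT1, with a median of 0.404. Over all genes tested the median was -0.00422 and 48.6% were positive. The groups were separate in 5 of the 9 genes. Over all genes, 10.0% had the 3 Olaparib samples above the 3 DMSO samples. With both an adjusted p under 0.05 (edgeR's quasi-likelihood test) and a log2 fold change beyond log2(1.2) required, 7 of the 9 were called higher and 0 lower, beside 0.723% of all genes called higher and 0.483% called lower. IFIT2 and IFIT5 were not called. Since the genes were chosen on this comparison, nothing is read from these counts. The number called was 4 without the Olaparib sample 2 or the DMSO sample 2, 5 without the Olaparib sample 3 or the DMSO sample 1, and 3 (IFIT1, IFIT3 and IFI44) by DESeq2's Wald test. In bulk RNA, a change in the number of cells that express a gene and a change in its RNA per cell cannot be told apart.

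**Figure D3:**
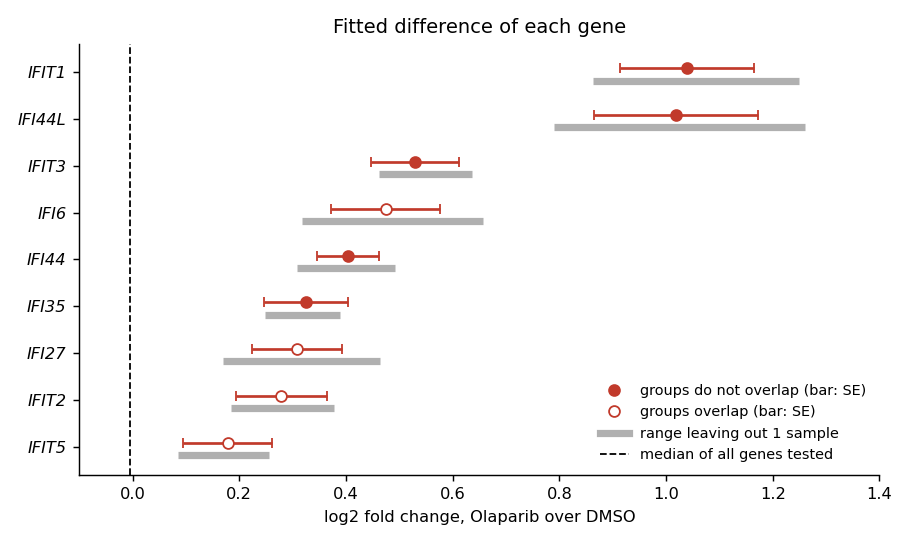
Fitted log2 fold change of each gene, Olaparib over DMSO (horizontal axis), with the SE derived from edgeR's F statistic as a red bar. Points are filled where the 3 samples of each group do not overlap and open where they do. The grey bar is the range when 1 of the 6 samples is left out, and it stays above the median of all genes (dashed line, -0.00422) for every gene, from 0.0846 at the lowest end for IFIT5 to 1.26 at the highest end for IFI44L.

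Levels were compared between genes as counts per kilobase of exon in a library of 1000000 counts, with the exon lengths of GENCODE release 44. In the DMSO samples IFI6 had the highest level, 23.8 ± 4.52 (SD, n = 3), followed by IFI44 at 15.0 ± 0.772 and IFI27 at 6.10 ± 1.12. IFI35 stood at 3.69 ± 0.283. The IFIT genes were lower and close together, with IFIT5 at 1.64, IFIT2 at 1.49, IFIT3 at 1.31 and IFIT1 at 1.01. IFI44L had the lowest level, 0.261 ± 0.0516. Of the neighbours in this order, IFIT5 and IFIT2, and IFIT2 and IFIT3, overlapped in their DMSO samples, and no other pair did. The order depended on the length used. Per kilobase of the canonical transcript, which leaves out rarer exons, IFI27 stood at 34.9 ± 6.41 and IFI6 at 27.4 ± 5.22, with overlapping samples, and IFIT3 moved up to 2.78 ± 0.354, above IFIT2 and IFIT5, while IFI44L stayed lowest at 0.521 ± 0.103. On either length the genes with the largest fold differences, IFIT1 and IFI44L, had the lowest levels in DMSO. In counts, the largest share of the difference in summed normalized counts between the groups came from IFI44 (24.8%), IFI6 (21.9%) and IFI27 (15.2%), against 12.4% from IFIT1 and 7.81% from IFI44L.

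Within a group the genes moved together. The Olaparib sample 1 was the lowest of the 3 Olaparib samples in 8 of the 9 genes, and the Olaparib sample 3 was the highest in 8. Over 13121 genes with a mean of at least 50 counts, these samples held the same ranks in 34.4% and 25.6%. The exceptions were IFIT2, lowest in the Olaparib sample 2, and IFI35, highest in the Olaparib sample 2. Among the controls the DMSO sample 2 was the lowest in 8 of the 9 genes (32.5% of all genes), IFIT3 being the exception, and the DMSO sample 3 was the highest in 6 (37.1% of all genes). The coefficient of variation of the genes was 7.39% (IFIT2) to 32.7% (IFI44L) in the Olaparib samples and 5.16% (IFI44) to 19.7% (IFI44L) in the DMSO samples. It was above the value that counting alone gives in all 9 genes in both groups (2.59% to 6.63% and 2.95% to 9.35%).

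The mean log2 level of the 9 genes relative to the DMSO mean was 0.245, 0.545 and 0.698 in the Olaparib samples 1, 2 and 3, and 0.043, -0.176 and 0.133 in the DMSO samples. The 50 other interferon-stimulated genes on the list showed the same order of samples in the Olaparib group, at 0.184, 0.353 and 0.407, and lay at 0.026, -0.065 and 0.039 in DMSO. The 16 interferon receptors and signalling factors lay between 0.030 and 0.062 with Olaparib and between -0.011 and 0.011 with DMSO. In the list of interferon gamma and antigen presentation genes, 16 of which passed the filter, the Olaparib samples stood at 0.221, 0.238 and 0.209 and the DMSO samples at 0.040, 0.022 and -0.062. The Olaparib sample 1 was not the lowest there. This mean is above the list's median log2 fold change of 0.052, and the largest fitted values of the list were those of CXCL11, GBP4, GBP5 and CXCL10, of which all but GBP5 had means under 50 normalized counts. The source of the spread among the Olaparib samples was not tested.

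**Figure D4:**
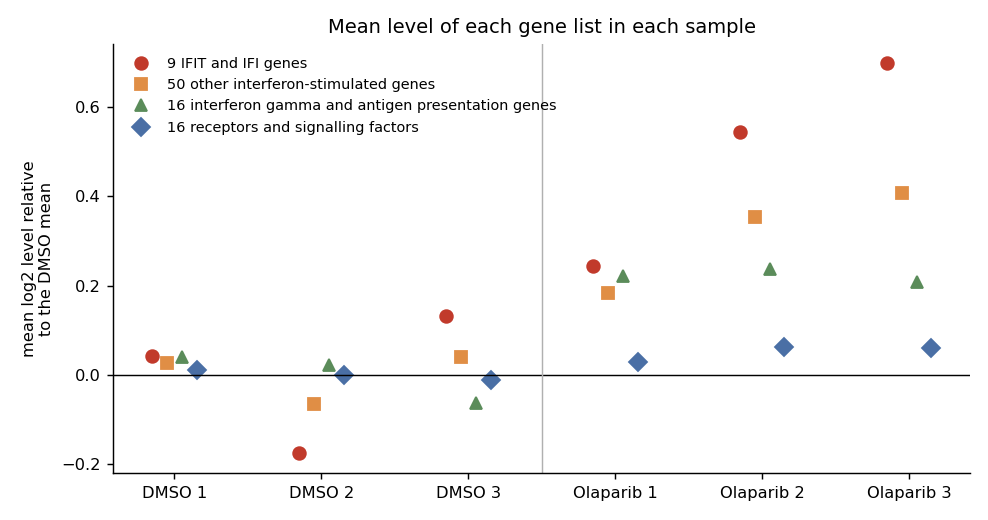
Mean log2 level of 4 gene lists in each sample relative to the mean of the DMSO samples (vertical axis), with 1 symbol per list. The 9 IFIT and IFI genes (circles) run from 0.245 to 0.698 over the Olaparib samples and from -0.176 to 0.133 over the DMSO samples, and the 16 receptors and signalling factors (diamonds) stay between -0.011 and 0.062 throughout.

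The genes lie in 5 loci, and their neighbours were examined in the same fit. Of 22 neighbouring genes that passed the filter, 0 were called by edgeR, DESeq2 or limma voom. Over all genes edgeR called 0.723% higher and 0.483% lower, so 0 of 22 is near that share and nothing is read from it. In edgeR's fit 0 had an unadjusted p under 0.05, and the lowest adjusted p was 0.377. The 11 neighbours with a mean of at least 50 normalized counts had log2 fold changes between -0.02 and 0.22. LIPA, a lysosomal lipase whose annotated gene runs over IFIT2, IFIT3 and IFIT1 on the opposite strand, had 1823 ± 112 normalized counts with Olaparib and 1755 ± 22.1 with DMSO (log2 fold change 0.05, edgeR adjusted p = 0.625). FAS, a death receptor on one side of the IFIT cluster, had a log2 fold change of -0.02 (edgeR adjusted p = 0.879), and PANK1, a coenzyme A synthesis enzyme on the other side, also -0.02 (edgeR adjusted p = 0.948). SLC16A12, a transporter 8.69 kb from IFIT5, had only 29.6 ± 4.15 normalized counts with Olaparib and 26.9 ± 8.54 with DMSO. CH25H, which makes an antiviral oxysterol, had a mean under 3 in both groups.

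IFI27 is flanked by paralogs of its own. IFI27L1, 0.99 kb away, had a log2 fold change of 0.05 (SE 0.09, edgeR adjusted p = 0.855), and IFI27L2, 11.1 kb away, of 0.22 (SE 0.14, edgeR adjusted p = 0.507). Next to them, DDX24, an RNA helicase, had -0.02 and PPP4R4, a phosphatase subunit, -0.04. VAT1, a membrane protein gene whose end is 151 bases from that of IFI35, had a log2 fold change of 0.03 (edgeR adjusted p = 0.689), against 0.32 for IFI35. The other neighbours of IFI35, the ribosomal protein gene RPL27, RUNDC1 and the GTPase RND2, had 0.02, 0.01 and 0.07. Around IFI6, AHDC1 had 0.01 and FAM76A 0.09, and 2 processed pseudogenes (ENSG00000235912 and ENSG00000231344) had fewer than 5 normalized counts. Around IFI44L and IFI44, GIPC2 was 481 kb away, with a log2 fold change of 0.34 (SE 0.18, edgeR adjusted p = 0.377), and the 3 nearest others, ENSG00000213560, ENSG00000235400 and PSAT1P3, are pseudogenes with fewer than 8 normalized counts.

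**Figure D5:**
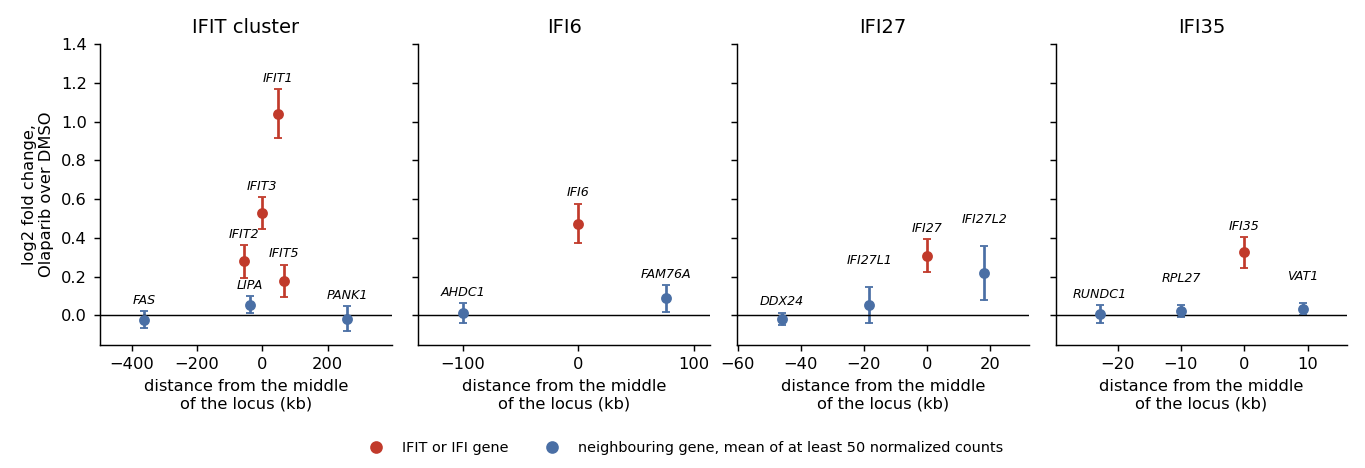
Log2 fold change, Olaparib over DMSO, with the SE derived from edgeR's F statistic (vertical axis) against the distance of each gene's middle from the middle of the locus in kilobases. Shown are IFIT and IFI genes (red) and those neighbours with a mean of at least 50 normalized counts (blue) at 4 of the 5 loci. The IFI44L and IFI44 locus had no such neighbour, since GIPC2, at 0.34, fell just short of the cutoff. The blue points lie between -0.02 and 0.22 and the red ones between 0.18 and 1.04.

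The other layers of the pathway were taken from lists that were written with earlier results known. Of 22 interferon ligand genes, 20 had 10 counts or fewer over all 6 samples. IFNB1, interferon beta, had 11 counts in total and IFNE, interferon epsilon, had 31.0 ± 6.61 normalized counts with Olaparib and 36.6 ± 4.78 with DMSO (log2 fold change -0.24, SE 0.21, edgeR adjusted p = 0.664). For the 20 genes at 10 counts or fewer and for IFNB1, a difference among such low counts was not detectable at this depth.

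All 16 receptors and signalling factors passed the filter, with a median log2 fold change of 0.0466, and 1 of them was called higher and 0 lower. That was IRF7, a transcription factor which interferon itself induces, with 792 ± 84.4 normalized counts with Olaparib and 617 ± 33.8 with DMSO. Its log2 fold change was 0.36 (SE 0.06, edgeR adjusted p = 1.9e-04), and it was called with any 1 of the 6 samples left out. STAT2 and IRF9, which act at the ISRE, had log2 fold changes of 0.08 (edgeR adjusted p = 0.399) and -0.09 (edgeR adjusted p = 0.781). For STAT2 the 3 Olaparib samples lay above the 3 DMSO samples, which was so in 10.0% of all genes, and for IRF9 the groups overlapped.

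Of 12 nucleic acid sensors and adaptors, 11 passed the filter, with a median log2 fold change of 0.0726, and 0 were called by edgeR, DESeq2 or limma voom. In edgeR's fit 1 was higher and 2 were lower at an unadjusted p under 0.05. MAVS, the mitochondrial adaptor of the RNA sensors and the most abundant of them, had a log2 fold change of -0.04 (edgeR adjusted p = 0.781). IFIH1, the sensor of long double-stranded RNA, stood at 0.23 with an edgeR adjusted p of 0.00376, below the fold threshold. Among 8 feedback inhibitors the median was 0.0589, and 1 was called higher. SOCS3, an inhibitor of JAK kinases, had 294 ± 4.60 normalized counts with Olaparib and 231 ± 20.4 with DMSO, a log2 fold change of 0.35 (SE 0.08, edgeR adjusted p = 0.00777, and 0.0541 without the DMSO sample 1). PTPN1, a phosphatase that acts on JAK kinases, had 0.02 (edgeR adjusted p = 0.867).

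The 50 other type I interferon-stimulated genes had a median log2 fold change of 0.244, against 0.404 for the IFIT and IFI genes. Of these 50, 47 were positive and 17 were called higher and 0 lower (13 higher by DESeq2 and 16 by limma voom), beside the 0.723% of all genes called higher. The count of 17 became 11 without the Olaparib sample 3 and 23 without the Olaparib sample 1. MX1, a GTPase that blocks viral replication, had 403, 644 and 740 normalized counts with Olaparib and 354, 228 and 284 with DMSO, a log2 fold change of 1.05 (SE 0.13, edgeR adjusted p = 1.2e-06). OAS2, which makes the oligoadenylate that activates RNase L, had 712, 1067 and 1247 with Olaparib and 602, 438 and 537 with DMSO, a log2 fold change of 0.94 (SE 0.11, edgeR adjusted p = 4.5e-07). In both, as in IFIT1, the Olaparib sample 1 was nearest to the controls and no samples overlapped. The adjusted p depended strongly on the tool. DESeq2's Wald test gave 0.0288 for MX1 and 0.0183 for OAS2, and limma voom gave 4.13e-05 and 1.39e-05. RSAD2 (viperin) had a log2 fold change of 0.87 (SE 0.19, edgeR adjusted p = 0.00477, and 0.0635 without the Olaparib sample 3) at 79.4 ± 21.8 and 43.3 ± 9.40 normalized counts. LGALS3BP, the most abundant gene of the list that was not called, had 0.08 (edgeR adjusted p = 0.147).

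The interferon gamma and antigen presentation list had 16 of 20 genes past the filter, a median log2 fold change of 0.052 and 1 gene called higher. That gene was GBP5, a guanylate-binding protein, with 231 ± 13.4 normalized counts with Olaparib and 148 ± 16.8 with DMSO (log2 fold change 0.65, SE 0.10, edgeR adjusted p = 3.8e-05). WARS1, the tryptophanyl-tRNA synthetase and the most abundant of the list, had 0.02 (edgeR adjusted p = 0.776). The 5 other genes that carry an IFI or IFIT name or are paralogs of these had 4 past the filter and 0 called by edgeR, DESeq2 or limma voom, with 0 at an unadjusted p under 0.05 in edgeR's fit. IFI16, a nuclear DNA sensor, had 1628 ± 93.8 and 1549 ± 96.8 normalized counts (log2 fold change 0.07, edgeR adjusted p = 0.527), and IFIT1B, the closest relative of IFIT1, had 2 counts in total.

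The profile of the 9 genes over the 6 samples was also compared with that of 13112 other genes with a mean of at least 50 counts, by the root mean square distance between centred log2 values. The nearest gene was OAS3, with a distance of 0.0744, and its normalized counts were 3745, 4798 and 4821 with Olaparib and 3121, 2977 and 3211 with DMSO. The other 9 of the 10 nearest were EPSTI1, PPP1R3G, PTGER3, OAS1, IRF7, ST6GALNAC2, HERC5, FAM43A and ZNF818P, at distances up to 0.113. Of the 10, 4 were on the list of other interferon-stimulated genes, IRF7 was on that of signalling factors and 5 were on none of the lists. Among the 9 genes themselves, IFI44 lay closest to their own mean, at 0.0983, and IFI44L farthest, at 0.311. All 6 samples entered this distance, so the difference between the groups is part of it.

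Markers of other cell types differed in level. Of 10 leukocyte markers 4 passed the filter. By edgeR, DESeq2 or limma voom 0 were called, and 1 (CD14) was higher at an unadjusted p under 0.05 in edgeR's fit. The 4 that passed summed to 124 to 143 normalized counts in the Olaparib samples and 106 to 127 in the DMSO samples. The T cell, B cell and NK cell markers CD3E, MS4A1 and NKG7 and the plasmacytoid dendritic cell marker CLEC4C had 6, 1, 0 and 1 counts in total, and PTPRC, the common leukocyte antigen, had a log2 fold change of 0.15 (edgeR adjusted p = 0.727). Of 5 fibroblast markers the collagen genes COL1A1 and COL1A2 passed the filter, with 0 called by any of these tools and 0 at an unadjusted p under 0.05 in edgeR's fit, and DCN, LUM and PDGFRB had 4, 0 and 5 counts. COL1A2 had a log2 fold change of -0.01 (edgeR adjusted p = 0.930). These collagen genes, COL1A2 (1447 ± 53.5 and 1462 ± 61.3) and COL1A1 (276 ± 53.5 and 297 ± 17.6), summed to 1642 to 1844 normalized counts with Olaparib and 1707 to 1839 with DMSO. With no adjustment for gene length, COL1A1 held about as many counts as several of the IFIT and IFI genes. COL1A2 held more than each of them in DMSO, and with Olaparib it was near IFI44, which had the most counts among them. The 9 IFIT and IFI genes held 4760 to 6577 normalized counts together with Olaparib and 3750 to 4684 with DMSO.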

How the data were processed

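RNA was measured in 6 samples of UWB1.289 cells, 3 with Olaparib and 3 with DMSO. The authors deposited read counts per gene, whole numbers that were not normalized. According to the study's methods and the submitters' processing notes, poly(A) RNA was made into stranded libraries, from 500 ng of RNA in the labels and a larger amount in the study's methods, and reads were trimmed, mapped to GRCh38 (hg38) with STAR and assigned to genes with featureCounts. The strand setting and whether duplicates were removed are not given in the sources used here, so reads of overlapping genes cannot be separated.

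Genes with more than 10 counts in total were kept (21729), scaled by TMM and tested with edgeR 4.0.16 (quasi-likelihood, R 4.3.3) without a replicate term, with Benjamini-Hochberg adjustment over all genes. Calls needed an adjusted p under 0.05 together with a log2 fold change beyond 0.263 in either direction. Levels are counts per kilobase of exon, scaled to a library of fixed size. The edgeR p-values set the difference between the groups against a variance that draws on all genes, estimated from these samples of 1 cell line. Which dish gave which sample is not stated. The fit was also run on simulated counts in which all genes had the same dispersion. That run lacked the larger spread of the IFIT and IFI genes between replicates, so nothing is read from it. Each SE is the absolute log2 fold change divided by the square root of edgeR's F statistic. Normalized counts are counts scaled to the mean effective library size. Profiles and mean log2 levels used a pseudocount of 0.5. Symbols, coordinates and lengths came from GENCODE release 44, which held 81.9% of the identifiers. Alternatives were RLE and upper quartile scaling, other filters, DESeq2 1.42.0, limma 3.58.1 (voom), a replicate term and leaving out each sample. The transcript length was added as an alternative after seeing the data.

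The genes and lists were chosen with earlier results of these data known. Named were the 9 genes, for each list up to 3 called genes with the largest difference and the most abundant gene not called, all neighbours (the 2 nearest tested genes on each side of a locus, loci joining genes within 500 kb, and overlapping genes), and the 10 genes of most similar profile. A gene that the rule would name is not reported here. STAT2, IRF9, IFIH1, IFNB1, CXCL10, CXCL11, GBP4 and some markers fall outside this rule and were named after their values were seen. Protein identity had been planned, and identity of coding sequences is given in its place. Depth limits low genes, and with 3 samples against 3 an exact permutation test cannot reach a p below 0.1, so single genes outside the chosen group were judged by edgeR's fit across all genes.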

Additional observations from a re-analysis of the deposited data

How the results depend on the processing

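The log2 fold changes of the 9 IFIT and IFI genes kept their positive direction under all 13 alternatives fitted, and their median, 0.404, lay between 0.396 and 0.405 under other scalings, filters and tests and between 0.317 and 0.491 with 1 sample left out. The number of genes called, 262, was 150 by DESeq2's Wald test and 730 by adjusted p alone, and it lay between 178 and 237 with 1 sample left out. Of the other interferon-stimulated genes, 17 were called, and 11 (without the Olaparib sample 3) to 23 (without the Olaparib sample 1) when 1 sample was left out. Of the 9 genes, 6 to 8 were called under the scalings, filters and voom, 3 by DESeq2 and 4 to 7 with 1 sample left out. With a replicate block the counts were 291 genes, 17 other interferon-stimulated genes and 8 of the 9, with a median of 0.401. The deviations of same-numbered samples correlated at -0.158, 0.184 and -0.219 over 13121 genes. Those of differently numbered samples correlated at between -0.277 and 0.374. Deviations within a group cancel out, so these correlations depend on each other and cannot settle whether the replicate numbers pair the samples. Depth limits the interferon ligands, most of which had 10 counts or fewer.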
